A study of Mus musculus with 8 samples.

Results

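The genes described here are 37 genes of glucose use, among them glucose transporters, hexokinases, the other enzymes of glycolysis, lactate and pyruvate handling, the pentose phosphate pathway and the response to low oxygen. They were chosen by name as a pathway list and matched to Ensembl gene IDs by their symbols, and all 37 were found among the 48795 genes of the files. Unstimulated peritoneal macrophages (pMacs) of 4 WT mice and 4 CD1d-KO mice were profiled by RNAseq of polyadenylated RNA, 1 library per mouse, to ask how the loss of CD1d, the molecule that presents lipids to natural killer T cells, changes gene expression in these cells. Each genotype has replicates numbered 1, 2, 3 and 5, giving 4 pairs. WT mice were C57BL/6 and are described as littermates of the CD1d-KO mice. For CD1d-KO mice the study names a CD1d flox x PGK Cre line, in which Cre is driven by the broadly active PGK promoter, and the deletion strain B6.129S6-Del(3Cd1d2-Cd1d1)1Sbp/J. Which of them gave the RNA is not given in the sources used here. Mice were matched for age and sex. CD1d is missing from the whole mouse in both lines, so other cells of the peritoneal cavity lacked it too. The cells came from peritoneal lavage, and an enrichment with F4/80 beads is described for the stimulation experiments.

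Glycolysis breaks glucose down to pyruvate in the cytosol. Cells take glucose up through transporters, trap it by phosphorylation with a hexokinase, and can send the phosphorylated sugar into the pentose phosphate pathway, which yields NADPH and ribose. Under low oxygen the factor HIF-1α is no longer degraded and switches on glycolytic genes, and activated macrophages are known to raise glycolysis in a similar way.

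Library totals ran from 13698864 to 19059432 expected counts. Normalized counts are expected counts brought to the average library size, and TPM values are scaled for gene length as well. The deleted gene *Cd1d1* (ENSMUSG00000028076, chromosome 3 from 86995834 to 86999441) had normalized counts of 67.7, 174, 95.5 and 140.0 in WT replicates 1, 2, 3 and 5. In the CD1d-KO libraries with the same numbers they were 60.2, 1.14, 0 and 1.09. The library labelled CD1d-KO replicate 1 thus held *Cd1d1* near the WT level, and each direction below includes it unless stated. Over the 4 pairs *Cd1d1* had an adjusted p of 0.233 (edgeR quasi-likelihood test, adjusted by Benjamini-Hochberg), and without replicate 1 it was 6.85e-04, within a range of 0.000604 to 0.997 over all alternatives. All 7 macrophage markers examined, among them *Adgre1* (F4/80) and *Csf1r*, had counts in every library. All 8 markers of B cells, which share the peritoneal cavity, had counts in every library too. Their summed normalized counts were lowest in both libraries of replicate 2 (3105 in WT and 1964 in CD1d-KO), against 5674 to 14064 in the other 6. In such bulk samples, fewer cells of a type and less RNA per cell cannot be told apart.

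The promoter sequences of 5 members are shown because these genes lead the comparisons below or carry the motif searched. *Slc2a6* and *Slc2a1* had the highest TPM among the glucose transporters of the list, and *Hk3* was its most variable hexokinase. *Tkt* had the lowest log2 fold change of the members, and the window of *Ldha* held the most matches to the motif. Sequences are from RefSeq (GRCm38.p6), run 5′ to 3′ along the gene's strand from 250 bases before to 50 after the start site, and capitals mark ACGTG, the core that HIF binds, or CACGT, the same letters on the other strand. Where both overlap they form the E-box CACGTG.
*Slc2a1* (chr4:119108495-119108794, plus strand): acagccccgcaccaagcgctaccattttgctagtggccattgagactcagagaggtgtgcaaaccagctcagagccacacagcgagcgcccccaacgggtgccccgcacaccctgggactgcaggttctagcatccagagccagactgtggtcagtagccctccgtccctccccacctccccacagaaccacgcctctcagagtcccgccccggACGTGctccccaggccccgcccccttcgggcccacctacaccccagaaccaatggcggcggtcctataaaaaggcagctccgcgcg
*Slc2a6* (chr2:27027949-27028248, minus strand): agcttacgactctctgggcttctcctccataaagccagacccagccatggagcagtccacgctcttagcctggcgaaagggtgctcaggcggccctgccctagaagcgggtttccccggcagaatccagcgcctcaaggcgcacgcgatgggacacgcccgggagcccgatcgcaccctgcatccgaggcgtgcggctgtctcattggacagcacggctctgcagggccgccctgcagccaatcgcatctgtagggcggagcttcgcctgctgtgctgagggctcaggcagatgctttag
*Hk3* (chr13:55021336-55021635, minus strand): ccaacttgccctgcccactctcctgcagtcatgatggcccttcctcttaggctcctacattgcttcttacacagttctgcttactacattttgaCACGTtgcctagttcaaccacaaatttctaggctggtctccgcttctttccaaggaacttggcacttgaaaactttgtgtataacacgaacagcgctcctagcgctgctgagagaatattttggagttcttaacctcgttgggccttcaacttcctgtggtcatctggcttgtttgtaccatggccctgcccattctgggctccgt
*Tkt* (chr14:30548881-30549180, plus strand): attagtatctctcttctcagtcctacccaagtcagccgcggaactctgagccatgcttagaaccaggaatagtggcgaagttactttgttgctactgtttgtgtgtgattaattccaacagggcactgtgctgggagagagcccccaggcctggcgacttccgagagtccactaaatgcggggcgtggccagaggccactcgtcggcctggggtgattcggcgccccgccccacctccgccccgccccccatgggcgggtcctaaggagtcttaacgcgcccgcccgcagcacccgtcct
*Ldha* (chr7:46845554-46845853, plus strand): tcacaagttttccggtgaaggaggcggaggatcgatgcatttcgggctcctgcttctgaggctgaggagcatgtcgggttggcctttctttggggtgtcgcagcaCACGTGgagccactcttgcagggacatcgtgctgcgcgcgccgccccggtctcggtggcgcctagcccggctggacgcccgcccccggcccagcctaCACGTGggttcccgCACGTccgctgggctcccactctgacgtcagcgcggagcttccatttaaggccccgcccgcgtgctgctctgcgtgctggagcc

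RefSeq windows were matched by symbol for 36 of the 37 members, 50 windows in all. ACGTG was found on either strand in 22 of the 36 members (61.1%), and in 21.8% of all 27025 genes with a window. Counted by window it was found in 25 of the 50, against 19.6% of 32851. Member windows were richer in CG pairs (median 21 against 7 over all windows), and among the 8148 windows with at least 21 CG pairs ACGTG was found in 29.0%, against 57.7% of the 26 such member windows. The E-box CACGTG was found in 12.0% of member windows and in 7.15% of all windows. TGACNNNGC, the core of the antioxidant response element, was found in 12.0% of member windows and 12.4% of all windows, with *Pgd*, *G6pdx*, *Hk1*, *Aldoa*, *Slc16a1* and *P4ha1* as the members that held it. The window of *Ldha* shown above held 5 matches to ACGTG, that of *Slc2a1* held 1, that of *Hk3* held 1, and those of *Slc2a6* and *Tkt* held 0. An E-box counts once on each strand. The 5 matches of *Ldha* began at -145, -144, -48, -47 and -34 from the start site, so they lay at fewer separate sites. A match of letters does not show that a factor binds there.

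In WT pMacs the members covered a wide range of levels. The aldolase *Aldoa* (993 ± 163 TPM, SD, n = 4 mice), which splits fructose bisphosphate, and the NADPH-producing *Pgd* (975 ± 179.9 TPM) were the most abundant, followed by the transaldolase *Taldo1* (811 ± 141 TPM). The next were *Pkm*, the pyruvate kinase of most tissues, at 539 ± 77.3 TPM and *Gapdh* at 534 ± 114 TPM. *Pgd* and *Taldo1* of the pentose phosphate pathway thus ranked among the most abundant members, beside enzymes of glycolysis. In all, 10 members lay above 100 TPM, 20 between 10 and 100 TPM and 7 below 10 TPM. The lowest were *Pfkm*, the phosphofructokinase of muscle, with 2.17 ± 0.331 TPM, *Slc2a3* with 0.608 ± 0.120 TPM and the brain aldolase *Aldoc* with 0.285 ± 0.282 TPM. Of the 36 steps between neighbours in this order, 29 joined genes whose ranges over the WT mice overlapped, and the gaps without overlap included those between *Taldo1* and *Pkm* and between *Gapdh* and *Eno1*.

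**Figure D1:**
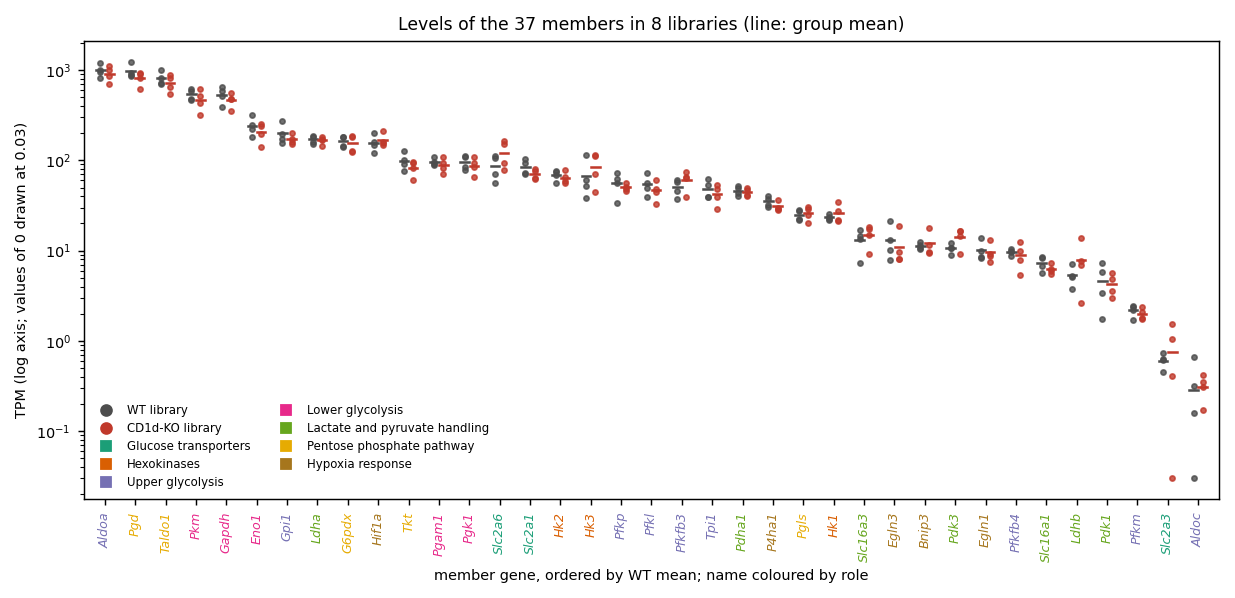
TPM of each member in every library (log axis), ordered by the WT mean, with WT libraries in grey, CD1d-KO libraries in red and a line at each group mean. Levels run from about 1000 TPM for *Aldoa* and *Pgd* to under 1 TPM for *Slc2a3* and *Aldoc*, and WT and CD1d-KO points of a gene lie close together on this scale.

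Of the 37 members, 36 passed the filter on low counts and were tested, and *Aldoc*, with at most 5.21 normalized counts in any library, was not. No member passed both thresholds, adjusted p under 0.01 with more than a 1.5-fold change (0 of 36, against 0.0383% of the 13040 genes tested), and 0 had an adjusted p under 0.05 (0.406% of all genes). DESeq2 called 0 members as well, against 1.02% of the 10398 genes to which it gave an adjusted p. At an unadjusted p under 0.05, 12 members (33.3%) differed, against 12.4% of all genes. Of these, 9 were lower in CD1d-KO pMacs (background 5.01%) and 3 were higher (background 7.35%). The median log2 fold change was -0.13 over the 36 members and 0.0047 over all genes tested, and 25 members had negative and 11 positive values. The CD1d-KO library was lower in 4 of 4 pairs for 7 members (background 10.1%) and higher for 2 (background 10.6%). No member had all CD1d-KO libraries above all WT libraries (background 1.04%) or below them (background 0.905%). The differences were small. The largest fold was 0.48 on the log2 scale for *Slc2a6*, and in 30 of the 36 members the unadjusted 95% interval lay within a 1.5-fold change in either direction. The intervals that reached beyond it were those of *Slc2a3*, *Slc2a6*, *Hk3*, *Pfkm*, *Ldhb* and *Pdk3*. Among genes with a mean of at least 1000 normalized counts, 7 of 21 members were lower at an unadjusted p under 0.05 (background 7.16%) and 3 higher (12.7%).

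These counts depended on the pairs. With 4 pairs, 9 members were lower at an unadjusted p under 0.05, and without replicate 2 the number was 11 (background 6.17%). It was 2 without replicate 1 (3.68%), 1 without replicate 3 (3.32%) and 1 without replicate 5 (3.33%). Without replicate 1, these 2 were *Tkt* (-0.25, unadjusted p = 0.0429, edgeR) and *Pfkfb4* (-0.28, 0.0410). The remaining lower members then had unadjusted p-values from 0.0626 (*Tpi1*) to 0.106 (*Gpi1*, edgeR). In no leave-out did any of the 12 members with an unadjusted p under 0.05 over 4 pairs change sign, but 4 log2 fold changes moved by more than 1.5 times. Without replicate 5, *Gpi1* had -0.12 in place of -0.20, *Hk3* 0.22 in place of 0.37 and *Pfkfb3* 0.18 in place of 0.29, and without replicate 3 *Pkm* had -0.14 in place of -0.22. The median over the 36 members was -0.07 without replicate 5 and -0.16 to -0.13 in the other leave-outs. Without the replicate number in the model, 0 members had an unadjusted p under 0.05. In that fit 3 of 13040 genes were called, and the share of all genes at an unadjusted p under 0.05 is not given. The number of members higher was 3 without replicate 1 (background 5.55%), 4 without replicate 2 (8.97%), 2 without replicate 3 (5.9%) and 2 without replicate 5 (5.14%). The median log2 ratio of the 36 members was -0.083 in pair 1, -0.0021 in pair 2, -0.11 in pair 3 and -0.21 in pair 5. The median of pair 2 was thus near 0, and it is also the pair with the lowest B cell markers in both libraries. Macrophage markers summed to 381097 in WT and 333864 in CD1d-KO replicate 2, and over the 4 pairs the sum was lower for CD1d-KO in 3. The lysozyme gene *Lyz2* alone made up 69.4% to 76.3% of that sum, and the other 6 markers together were higher for CD1d-KO in 3 of 4 pairs (84593 to 90316 in WT and 83614 to 92948 in CD1d-KO libraries). The 10 genes of handling and dissociation stress, such as *Fos* and *Atf3*, summed to 15154, 13096, 16301 and 14441 in WT and to 12183, 14467, 16267 and 12738 in CD1d-KO replicates 1, 2, 3 and 5, so that pair 2 was the one in which the CD1d-KO library was higher. The part of cell composition and of handling in these differences was not tested.

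**Figure D2:**
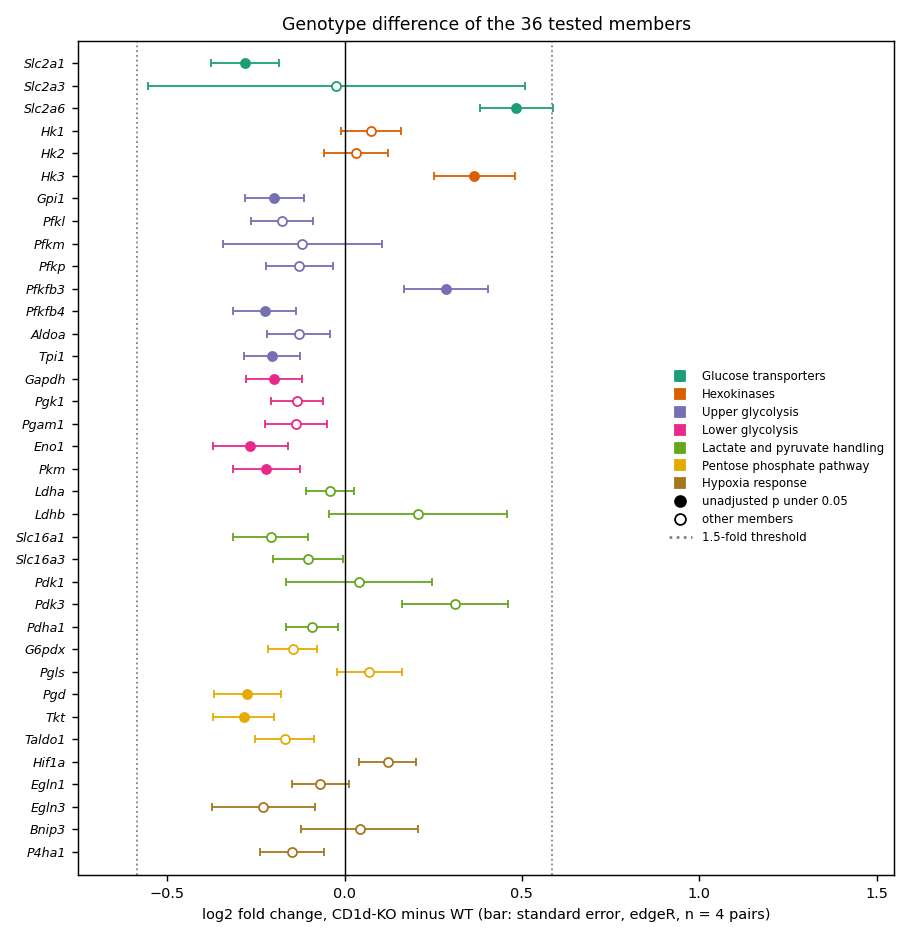
The log2 fold change of CD1d-KO against WT (x axis) for each tested member (y axis), coloured by role, with the standard error from edgeR over 4 pairs. Filled points have an unadjusted p under 0.05, dotted lines mark a 1.5-fold change, and all points lie between -0.28 and 0.48, inside the lines.

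The glucose transporters had values of opposite sign. *Slc2a6* (ENSMUSG00000036067, chromosome 2 from 27021363 to 27027998, minus strand) encodes GLUT6, a transporter held mostly on internal membranes and known from immune cells. It had 1004, 1539.9, 2357 and 2165 normalized counts in WT replicates 1, 2, 3 and 5, and 1658, 1706, 3707 and 2868 in CD1d-KO replicates with the same numbers. The CD1d-KO library was higher in each pair, but the groups overlapped because mice of one genotype differed by more than the genotypes did. Its fold change on the log2 scale was 0.48 (standard error 0.10, 95% interval 0.25 to 0.72), the largest of the members, with an adjusted p of 0.122 from edgeR. DESeq2 gave it an adjusted p of 0.00473, the only member under 0.01 (background 1.67%), but not a call, since its fold was under 1.5. Without replicate 1 the log2 fold change was 0.40, and over all alternatives the adjusted p ran from 0.00264 to 0.997.

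*Slc2a1* (ENSMUSG00000028645, chromosome 4 from 119108711 to 119137983, plus strand) encodes GLUT1, the main glucose carrier of the cell surface in macrophages. Its normalized counts were 2377, 2109.7, 2559 and 1965 in WT replicates 1, 2, 3 and 5 and 1778, 2222, 1954 and 1502 in CD1d-KO pMacs. The CD1d-KO library was lower in pairs 1, 3 and 5 and slightly higher in pair 2, and the difference came to -0.28 on the log2 scale (standard error 0.10, adjusted p = 0.286, edgeR). As a share of the TPM summed over the 3 transporters, *Slc2a6* took 35.4%, 48.8%, 54.0% and 60.0% in WT libraries and 54.2%, 49.8%, 71.9% and 70.6% in CD1d-KO libraries. The share of *Slc2a6* was higher for CD1d-KO in 4 of 4 pairs, by less than 1 percentage point in pair 2. *Slc2a1* made up nearly all of the rest, so its share was lower in 4 of 4. The neuronal and lymphocyte transporter *Slc2a3* made up less than 1% in each library. It had 11.2, 7.47, 13.1 and 17.8 normalized counts in WT and 14.3, 0, 16.3 and 24.0 in CD1d-KO libraries, lowest in both libraries of replicate 2. The summed markers of B cells and of T and NK cells (58.5 in WT and 39.8 in CD1d-KO) were lowest there too. Most of the T and NK sum was *Lck* (34.1 in WT and 23.9 in CD1d-KO replicate 2), and the other markers of these cells were mixed. *Cd3d* was lowest in replicate 2 in both genotypes, whereas *Trbc2* was higher in WT replicate 2 (8.30) than in any other library. These *Slc2a3* counts are near the floor, and the part of such cells in them was not tested.

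The 3 hexokinases, which phosphorylate glucose on entry, all had positive values, and *Hk3* alone had an unadjusted p under 0.05. *Hk3* (ENSMUSG00000025877, chromosome 13 from 55005985 to 55021385, minus strand), a hexokinase of myeloid cells, had 874, 1538, 3069 and 1539 normalized counts in WT and 1072, 1921, 3203 and 2663 in CD1d-KO libraries. Each CD1d-KO library was above its WT partner, with a ratio that ran from 0.06 on the log2 scale in pair 3 to 0.79 in pair 5. The genotype difference came to 0.37 on the log2 scale (standard error 0.11, adjusted p = 0.241, edgeR), without replicate 1 it was 0.39, and without replicate 5 it was 0.22. The 6 markers of neutrophils, which also use this enzyme, summed to 53.7 to 90.7 normalized counts in WT and 84.0 to 109 in CD1d-KO libraries, higher for CD1d-KO in 4 of 4 pairs. The sum followed *S100a8*, at 44.1 to 51.2 in WT and 80.5 to 89.5 in CD1d-KO libraries, whereas *Mmp8* was lower for CD1d-KO in 4 of 4 pairs (8.35 to 36.3 in WT and 1.17 to 25.0 in CD1d-KO libraries). *S100a9*, *Retnlg* and *Cxcr2* had at most 3.27 normalized counts in any library, and *Ly6g* was at 0 in all 8. Their part in the value of *Hk3* was not tested. The inducible *Hk2* (0.03, 95% interval -0.18 to 0.24) and the widely expressed *Hk1* (0.07, -0.12 to 0.27) had values near 0. *Hk3* made up 40.3% ± 10.3 of hexokinase TPM in WT and 46.8% ± 9.83 in CD1d-KO pMacs (SD, n = 4), higher in 4 of 4 pairs, and *Hk2* 44.4% ± 8.22 and 38.1% ± 9.84, lower in 4 of 4. The spread between mice of a genotype was larger than either difference.

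**Figure D3:**
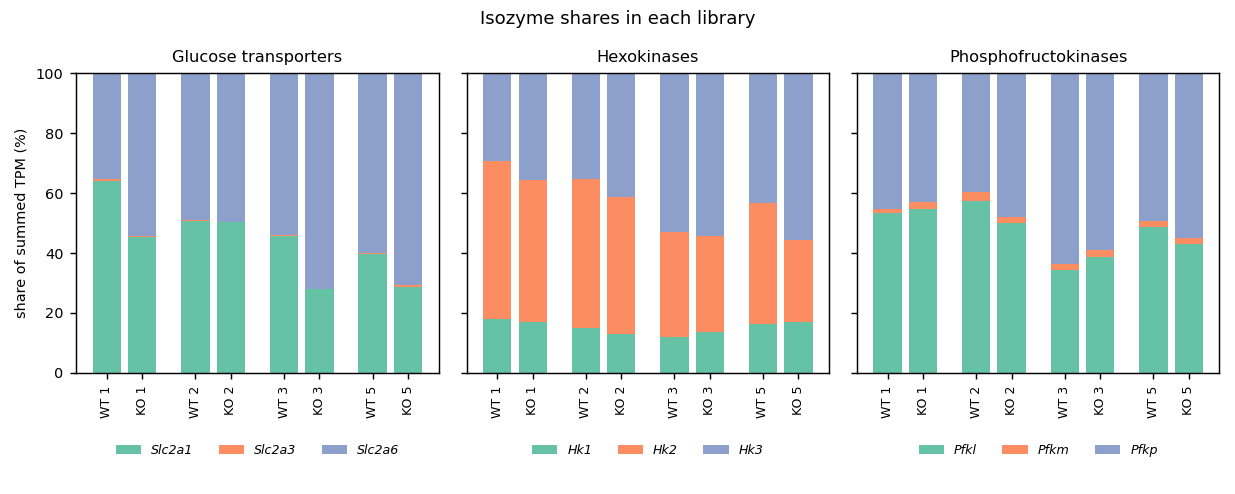
Share of each isozyme in the TPM summed over its family (y axis, percent), with the WT and CD1d-KO (KO) library of each replicate number side by side. *Slc2a6* takes more of the transporter TPM in each KO library than in its WT partner, and *Hk3* takes more of the hexokinase TPM. For *Slc2a6* the shares run from 48.8% to 49.8% in pair 2 and from 35.4% to 54.2% in pair 1. The KO library of pair 1 held *Cd1d1* near the WT level.

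Upper glycolysis turns glucose phosphate into 3-carbon sugars, and 7 of its 8 tested members had negative values, of which 3 had an unadjusted p under 0.05. These were *Gpi1*, the glucose phosphate isomerase (-0.20, standard error 0.08), *Tpi1*, the triose phosphate isomerase (-0.20, 0.08), and *Pfkfb4*, one of the enzymes that set the level of fructose 2,6-bisphosphate (-0.23, 0.09). All were lower for CD1d-KO in 4 of 4 pairs, with adjusted p-values of 0.396, 0.351 and 0.362 (edgeR). Without replicate 5 the value of *Gpi1* was -0.12. *Tpi1* (ENSMUSG00000023456, chromosome 6 from 124810586 to 124814296) had 689, 592, 526 and 719 normalized counts in WT and 619.6, 580.5, 427 and 568 in CD1d-KO libraries, so that the groups overlapped although each pair was lower. The liver-type phosphofructokinase *Pfkl* (log2 fold change -0.18, 95% interval -0.38 to 0.03), the platelet type *Pfkp* (-0.13, -0.35 to 0.09) and *Aldoa* (-0.13, -0.34 to 0.08) had negative values that did not reach an unadjusted p of 0.05. *Pfkl* and *Pfkp* shared the phosphofructokinase TPM about equally, with means of 48.5% (34.5% to 57.5%) and 49.5% (39.6% to 63.6%) over the WT libraries, and neither share moved one way in all pairs.

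The exception was *Pfkfb3* (ENSMUSG00000026773, chromosome 2 from 11471433 to 11554077, minus strand), the inducible kinase whose product, fructose 2,6-bisphosphate, activates phosphofructokinase. It had 1077, 1860.1, 1664 and 1157 normalized counts in WT and 1045, 1936, 2396 and 1759.6 in CD1d-KO libraries. The CD1d-KO library was higher in pairs 3 and 5, within 0.06 of its partner on the log2 scale in pairs 1 and 2, and the groups overlapped. Its genotype difference came to 0.29 on the log2 scale (standard error 0.12, adjusted p = 0.388, edgeR), opposite in sign to that of *Pfkfb4*. Without replicate 5 it was 0.18, with an unadjusted p of 0.193.

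Lower glycolysis runs from glyceraldehyde phosphate to pyruvate, and all 5 members had negative values, of which *Eno1*, *Pkm* and *Gapdh* had an unadjusted p under 0.05. The enolase *Eno1* (ENSMUSG00000063524, chromosome 4 from 150236721 to 150248879, plus strand) had 4963, 4377, 3288 and 4567 normalized counts in WT and 3911, 4722, 2666 and 3169 in CD1d-KO libraries (log2 fold change -0.27, standard error 0.11, adjusted p = 0.368, edgeR). *Pkm* (ENSMUSG00000032294, chromosome 9 from 59656368 to 59679375, plus strand) had 12521, 14687, 11433 and 11186 in WT and 10647, 15106, 8338 and 9495 in CD1d-KO libraries (-0.22, 0.09, 0.400, and -0.14 without replicate 3). For both genes the CD1d-KO library was lower in pairs 1, 3 and 5 and higher in pair 2. *Gapdh* (ENSMUSG00000057666, chromosome 6 from 125161715 to 125166467, minus strand), often taken as a constant reference in other assays, had 3751, 3540.1, 3099 and 4037 in WT and 3208, 3399.8, 2848 and 3083 in CD1d-KO libraries. It was lower in each of the 4 pairs, by 0.06 to 0.39 on the log2 scale (-0.20, standard error 0.08, adjusted p = 0.359, edgeR). The phosphoglycerate mutase *Pgam1* had a log2 fold change of -0.14 (95% interval -0.34 to 0.07), with 2 pairs lower and 2 higher.

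Counts of glycolytic enzymes were shared with pseudogenes, because RSEM divides reads that match several genes. In GENCODE M21, 93 copies of 8 members had at least 95% identity over at least 80% of their length. *Gapdh* had 82 of them, which took 8.10% to 12.3% of its summed counts, and the 3 copies of *Eno1* took 1.49% to 6.58%. The phosphoglycerate kinase *Pgk1* (ENSMUSG00000062070, chromosome X from 106187100 to 106203699) had a pair of processed pseudogenes, *Pgk1-rs7* and *Gm5537*, that were 100% identical to its transcript over 1255 and 1252 bases, and these took 37.3% to 52.7% of the summed counts. By itself *Pgk1* had 1674, 2035, 1488 and 1319 normalized counts in WT and 1424, 1941, 1245 and 1343 in CD1d-KO libraries, a log2 fold change of -0.13 (standard error 0.07). With both pseudogenes added, the counts were 3167, 3586, 2619 and 2792 in WT and 2345, 3426, 1986 and 2308 in CD1d-KO libraries. The CD1d-KO library was then lower in 4 of 4 pairs, and the log2 fold change was -0.29 (standard error 0.08, unadjusted p = 0.0075, adjusted p = 0.202, edgeR). Over all alternatives the adjusted p of *Pgk1* ran from 0.202 to 0.997. The genotype value of *Pgk1* therefore depended on how reads were divided among identical sequences. Adding copies moved *Gapdh* from -0.20 to -0.17 and *Eno1* from -0.27 to -0.25, and with its copies *Gapdh* had an unadjusted p of 0.0577 (edgeR).

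**Figure D4:**
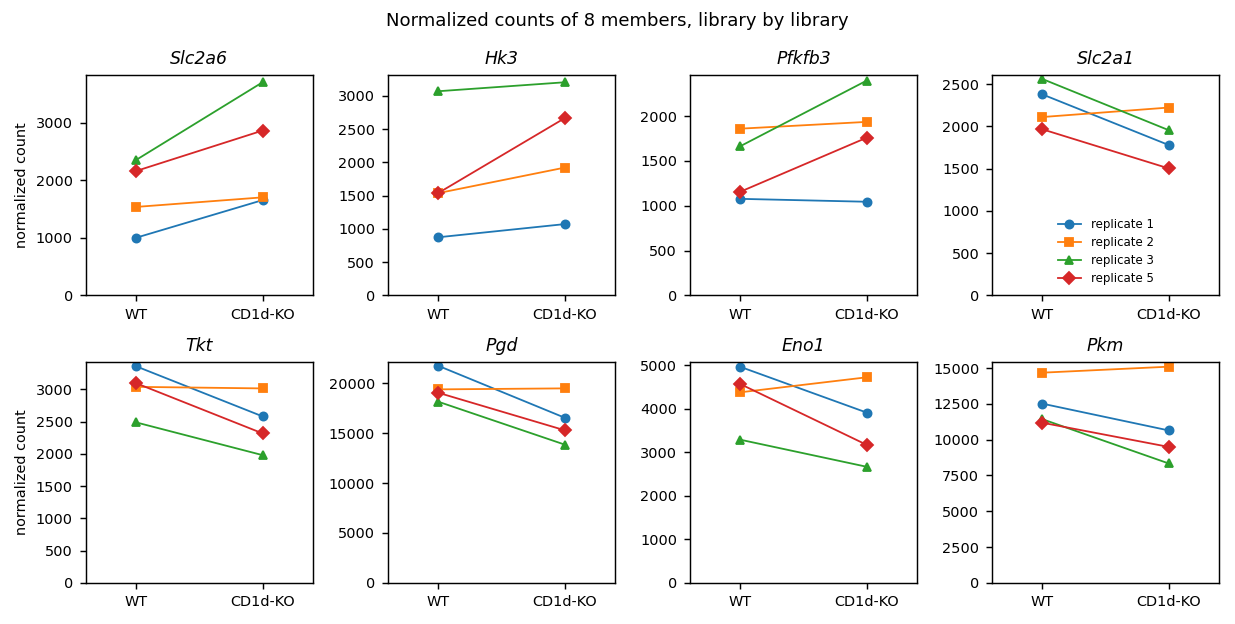
Normalized counts (y axis, from 0) of 8 members in the WT and CD1d-KO library of each replicate number, joined by a line. The CD1d-KO library is higher in all 4 pairs for *Slc2a6* and *Hk3* and lower in pairs 1, 3 and 5 for *Slc2a1*, *Tkt*, *Pgd*, *Eno1* and *Pkm*, for which the line of replicate 2 is nearly level or goes slightly up.

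None of the 7 genes of lactate and pyruvate handling had an unadjusted p under 0.05. *Ldha*, the lactate dehydrogenase subunit that favours lactate, had 2365, 2417, 2491 and 2686 normalized counts in WT and 2213, 2575, 2384 and 2509.5 in CD1d-KO libraries, a log2 fold change of -0.04 with a 95% interval from -0.20 to 0.12. It made up 92.5% to 98.4% of lactate dehydrogenase TPM. The rest was *Ldhb* (0.21, -0.38 to 0.79), which was lowest in CD1d-KO replicate 2. The monocarboxylate carriers *Slc16a1* (MCT1, -0.21, -0.45 to 0.04) and *Slc16a3* (MCT4, which exports lactate, -0.10, -0.33 to 0.13) had negative values. *Pdk3*, a kinase that turns pyruvate dehydrogenase off, had a log2 fold change of 0.31 (-0.04 to 0.66), with 156, 229, 259 and 217 normalized counts in WT and 214, 186, 371 and 313 in CD1d-KO libraries. The log2 ratios of its 4 pairs were 0.45, -0.30, 0.52 and 0.53. *Pdk1* (0.04, -0.44 to 0.52) and *Pdha1*, the catalytic subunit that these kinases act on (-0.09, -0.26 to 0.08), had intervals that included 0.

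In the pentose phosphate pathway, 4 of 5 members had negative values, and *Tkt* and *Pgd* had an unadjusted p under 0.05. The transketolase *Tkt* (ENSMUSG00000021957, chromosome 14 from 30548359 to 30574720, plus strand), which links the pathway back to glycolysis, had 3359.6, 3040.3, 2489 and 3097 normalized counts in WT and 2582, 3016, 1981 and 2319 in CD1d-KO libraries. It was lower in 4 of 4 pairs, by 0.01 in pair 2 and 0.33 to 0.42 in the others on the log2 scale, and the groups overlapped. The log2 fold change came to -0.28 (95% interval -0.48 to -0.09, standard error 0.09, adjusted p = 0.232, edgeR), the lowest of all members. Without replicate 1 it was -0.25. *Pgd* (ENSMUSG00000028961, chromosome 4 from 149149991 to 149166771, minus strand), the second of the NADPH-producing enzymes, had 21777, 19408, 18173 and 19071 in WT and 16568, 19508, 13868 and 15306 in CD1d-KO libraries (-0.27, 0.09, 0.284). The WT and CD1d-KO libraries of pair 2 differed by 0.01 on the log2 scale.

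The rate-limiting *G6pdx*, the first NADPH-producing enzyme, had log2 ratios of -0.01, -0.18, -0.18 and -0.21 in pairs 1, 2, 3 and 5 and a log2 fold change of -0.15 (95% interval -0.31 to 0.02, unadjusted p = 0.0701 from edgeR), and *Taldo1* had -0.17 (-0.36 to 0.02). The lactonase *Pgls*, which overlaps another gene, had 0.07 (-0.14 to 0.28). *G6pdx*, *Pgk1*, *Pdk3* and *Pdha1* lie on the X chromosome. *Xist*, the RNA that silences one X chromosome in females, had 6232 to 8201 normalized counts in WT and 9374 to 14867 in CD1d-KO libraries, higher in 4 of 4 pairs. The Y-linked *Ddx3y* and *Eif2s3y* were at 0 in all 8 libraries, and *Kdm5d* and *Uty* had at most 3.14 normalized counts in any. All 8 libraries thus had the pattern of female mice. The part of *Xist* in the values of these 4 members was not tested.

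The hypoxia list held no member with an unadjusted p under 0.05. *Hif1a* (ENSMUSG00000021109, chromosome 12 from 73901375 to 73947530), the oxygen-regulated subunit of HIF-1, had 5227, 7218, 8953 and 4988 normalized counts in WT and 6124, 6837, 9626 and 5852 in CD1d-KO libraries (0.12, 95% interval -0.07 to 0.31). The prolyl hydroxylases that mark HIF-1α for degradation, *Egln1* (-0.07, -0.26 to 0.12) and *Egln3* (-0.23, -0.57 to 0.11), the mitophagy gene *Bnip3* (0.04, -0.34 to 0.43) and the collagen hydroxylase *P4ha1* (-0.15, -0.36 to 0.06), all known HIF targets, had intervals that included 0. Of the 9 members that were lower at an unadjusted p under 0.05, 3 held ACGTG in a promoter window (*Slc2a1*, *Gapdh* and *Pkm*), as did 2 of the 3 that were higher (*Hk3* and *Pfkfb3*) and 17 of the 24 others with a window.

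A list of 80 further genes of these pathways was read in the same fit. Of the 65 tested, 0 passed the thresholds with edgeR or with DESeq2, and 9 had an unadjusted p under 0.05 (13.8%, against 12.4% of all genes), 5 higher and 4 lower. The median log2 fold change was 0.0054. *Pck2*, the mitochondrial enzyme that makes phosphoenolpyruvate, was higher in 4 of 4 pairs, with 602, 539, 1178 and 619.7 normalized counts in WT and 936, 1047, 1477 and 802 in CD1d-KO libraries (0.57 on the log2 scale, standard error 0.11, with an adjusted p of 0.0967 in edgeR and of 0.00288 in DESeq2, and 0.000782 to 0.997 over all alternatives). The hypoxia and stress genes *Ndrg1* (0.86) and *Ddit4* (0.59), the nuclear receptor *Rora* (0.33) and *Pdpr*, a regulatory subunit of pyruvate dehydrogenase phosphatase (0.20), were the others with higher values. Those with lower values were *Fam162a*, a hypoxia-responsive mitochondrial gene (-0.63), the glucose bisphosphate synthase *Pgm2l1* (-0.58), the transporter *Slc2a8* (-0.56) and *Prps1*, which makes phosphoribosyl pyrophosphate from the product of the pathway (-0.34).

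Members differed between replicate numbers as well. In the F test of edgeR on the replicate number, 9 of 36 members had an adjusted p under 0.05 (25.0%, against 15.6% of all genes). Among genes with a mean of at least 1000 normalized counts it was 7 of 21 members, against 773 of 2696 genes. In simulated data this test made more false calls than its threshold allows. The 9 members were *Slc2a6*, *Hk2*, *Hk3*, *Pfkfb3*, *Pgk1*, *Pkm*, *Slc16a3*, *Hif1a* and *Egln3*. Of these 9, *Hk3* varied most, with means of 973, 1729, 3136 and 2101 normalized counts over the 2 libraries of numbers 1, 2, 3 and 5 (adjusted p = 0.00467, edgeR), a 3.22-fold range, and its genotype fold was 1.29. *Slc2a6* had 1331, 1623, 3032 and 2516 (0.00669) and *Hif1a* 5676, 7028, 9289.6 and 5419.6 (0.0117). These 3 genes and *Pfkfb3* (1061, 1898, 2030.3 and 1458) were highest in replicate 3. For *Pfkfb3* this came from the CD1d-KO library (2396), since WT had 1664 in replicate 3 and 1860 in replicate 2.

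The other members that differed were not highest in replicate 3. *Egln3* was highest in replicate 1 and lowest in replicate 3, with means of 446, 269, 219 and 267 (adjusted p = 0.0380, edgeR), and *Slc16a3* was lowest in replicate 3 (352, 377, 211 and 337). *Pkm* (11584, 14897, 9885 and 10341), *Pgk1* (1549, 1988, 1367 and 1331) and *Hk2* (2033, 3092, 2623 and 2032) were highest in replicate 2. The labels do not say what libraries of one number share. Without replicate 3 the number of members that differed was 1 (background 2.5%), and without replicate 1 it was 5 (background 6.26%).

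**Figure D5:**
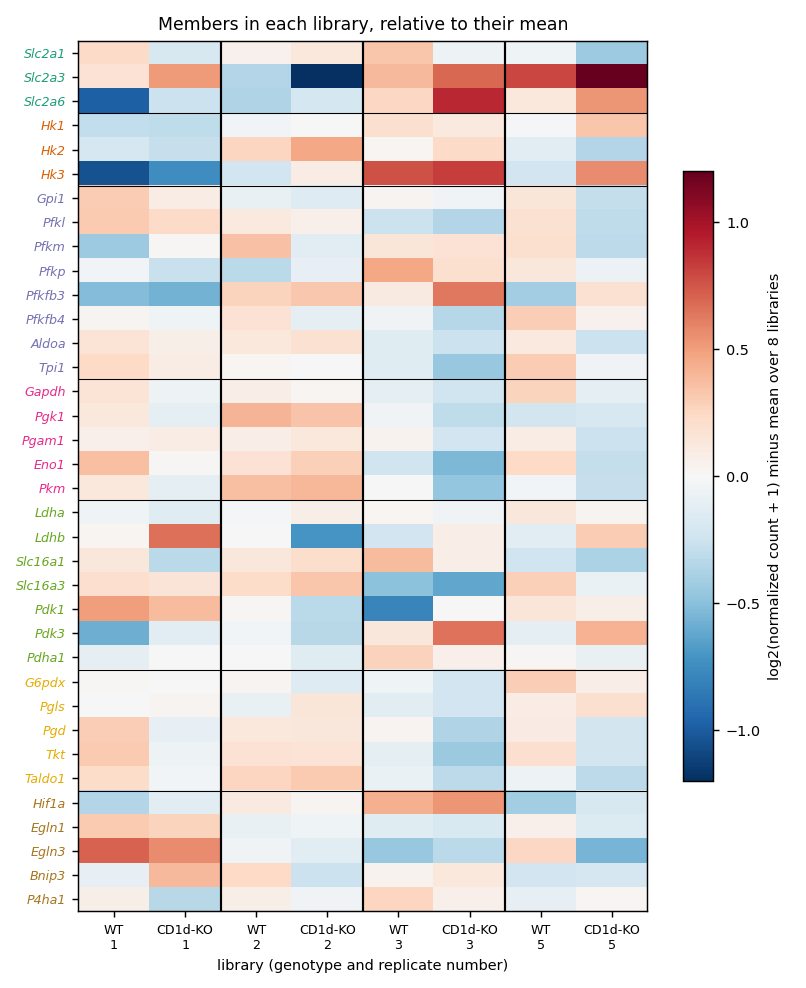
Each tested member (y axis, grouped by role between the horizontal lines) in each library (x axis, by replicate number), as log2(normalized count + 1) minus its mean over the 8 libraries, with colours ending at 1.2 in either direction. *Hk3*, *Slc2a6* and *Hif1a* are red in replicate 3 in both genotypes and *Egln3* and *Slc16a3* blue. *Pfkfb3* is red there in CD1d-KO and nearly white in WT. Both libraries of replicate 2 look alike for glycolysis.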

How the data were processed

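The authors sequenced poly(A) RNA of pMacs, 4 WT mice and 4 CD1d-KO mice, in single-end mode. Per the submitters' processing notes, reads were trimmed with Cutadapt and quantified with RSEM 1.3.0 and STAR 2.5.2a on GRCm38. The expected counts deposited by the authors are reads per gene as estimated by RSEM, not normalized. The TPM values deposited by the authors were scaled for gene length and depth. The strand setting is not given in the sources used here, and the FPKM column was not used.

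Gene IDs were named with GENCODE M21 (99.26% matched). Expected counts were rounded, filtered with filterByExpr and scaled by TMM in edgeR 4.0.16 (R 4.3.3), and the 13040 genes left were fitted with genotype and replicate number, the covariates of the study, by the quasi-likelihood test. Calls needed a p under 0.01 after Benjamini-Hochberg adjustment and more than a 1.5-fold change. Intervals are unadjusted 95% intervals. DESeq2 1.42.0, limma-trend 3.58.1 on log2(TPM + 1), other scalings and filters, no replicate term and each pair left out were alternatives. Fits were tested on simulated data, where the test on the replicate number made more false calls than its threshold allows. The edgeR test on genotype and limma-trend also made somewhat more than theirs allows.

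Libraries of the same number correlated across genes, after removal of genotype means, with 0.487, 0.387, 0.505 and 0.207 for numbers 1, 2, 3 and 5, and were treated as pairs. Against CD1d-KO libraries of other numbers the highest values were -0.015, 0.025, 0.059 and 0.22, so the pairing of number 5 was no closer than another match. No library was a copy of another. Copies were searched with blastn 2.17.0. Each mouse gave 1 library, and n is the number of mice. The members and lists were chosen with earlier results of these data known. All members may be named, a direction is given only at an unadjusted p under 0.05, and of the other pathway genes up to 5 in each direction with an unadjusted p under 0.05 are named.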

Additional observations from a re-analysis of the deposited data

Results flagged for a closer look

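In 74 groups of 4 libraries, the normalized counts of the members and of *Cd1d1* were searched for 1 library far from the other 3 by Dixon's test at its 95% critical value. Chance gives about 1 in 20, here 3.7, and 3 were found. *Aldoa* had 11626 normalized counts in WT replicate 3, against 13910 to 14344 in the other WT libraries. *Slc16a3* had 221 in WT replicate 3, against 358 to 380. The CD1d-KO library of the same number was also the lowest of its group for both genes, at 10720.1 and 202. *Cd1d1* had 60.2 in the library labelled CD1d-KO replicate 1, while replicates 2, 3 and 5 of that genotype had at most 1.14.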

How the results depend on the processing

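No member was called under any of the alternatives run, and the median log2 fold change of the members was negative in each (-0.16 to -0.07 with each pair left out). The number of members at an adjusted p under 0.05 was 0, and it was 1 with DESeq2, 2 without a filter on counts, and 0 to 1 with each pair left out. No replicate block left it at 0, with 0 members at an unadjusted p under 0.05 in place of 12. The number that differed between replicate numbers, 9, was 17 without a filter on counts and 1 to 11 with each pair left out. Over all genes, calls numbered 5 of 13040 in the reported fit, 106 with DESeq2 and 3 with no replicate block. Without a filter on counts they numbered 236 of 25377. Unless given above, the shares of all genes under these alternatives are not shown, so the counts do not describe the members alone. Of 431 log2 fold changes of single members under alternatives, 12 had the other sign, over 7 members, and 0 of these had an unadjusted p under 0.05 in the reported fit. *Slc16a3* had 0.19 with limma-trend on TPM, and *Pgk1* had -0.29 with its copies added. The cause of these shifts was not tested, beyond the fewer libraries that remain where a pair is left out. The alternative that adds the counts of copies to a member was chosen after seeing the data. *Slc2a3*, *Aldoc* and *Pfkm* have few counts, so that only large differences could be detected. Protein, flux and metabolites were not measured, and intervals take the spread between 4 mice only.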
